A study of Mus musculus with 7 samples.

Results

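The immunity-related GTPases (IRG proteins) were followed here as 10 mouse genes, chosen by gene symbol: Irgm1, Irgm2, Igtp, Iigp1, Ifi47, Tgtp1, Tgtp2, Gm4951, Gm12185 and 9930111J21Rik2. They are 10 of the 13587 genes listed in at least 1 of the 6 tables of the series. All samples come from 1 clone of B16, a transplantable melanoma of C57Bl/6 mice that was kept as a stable line. Cells in suspension received either recombinant mouse interferon gamma (IFNγ, 10 nM) or plain medium (the mock pulse) for 5 h. After 3 washes they were plated at 35000 per well, with duplicate wells. PolyA RNA was sequenced at labelled times of 0 h (T0), 23.5 h, 48 h and 91 h, which gives 7 groups: T0, 3 IFNγ groups and 3 mock groups. The labels do not give the moment from which the hours were counted, nor whether T0 cells had been through a pulse.

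IRG proteins are GTPases of cell-autonomous defence in the mouse, made by cells that sense interferons. Irgm1, Irgm2 and Igtp (also called Irgm3) are regulatory members that sit on the cell's own membranes and keep the others inactive there. Iigp1 (Irga6), the Tgtp proteins (Irgb6) and Ifi47 (Irgd) belong to the effector class, which loads onto the vacuoles of parasites such as Toxoplasma and disrupts them. GAS and ISRE elements are short promoter motifs of interferon-induced genes, and the transcription factor IRF1 binds ISREs.

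Promoters of 8 of the 10 genes were in the RefSeq table used (GRCm38.p6, 250 bases before to 50 after each start). They were searched on both strands for the GAS letters TTCNNNGAA and the ISRE core (GAAA, any 2 bases, GAAA). The stretches below are shown because the same pair of motifs stands side by side in 5 of them; capitals mark the motif letters, and all are written 5′ to 3′ on the strand of the gene.
Igtp, chr11:58199492-58199561, plus strand: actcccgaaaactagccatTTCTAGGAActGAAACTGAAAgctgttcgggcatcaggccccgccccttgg
Irgm2, chr11:58214883-58214952, plus strand: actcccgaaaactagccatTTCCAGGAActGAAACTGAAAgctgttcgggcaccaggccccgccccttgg
Tgtp1, chr11:48992284-48992353, minus strand: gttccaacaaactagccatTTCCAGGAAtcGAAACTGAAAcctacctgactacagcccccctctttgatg
Tgtp2, chr11:49064243-49064312, minus strand: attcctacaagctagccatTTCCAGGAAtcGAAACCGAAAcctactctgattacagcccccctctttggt
Gm12185, chr11:48927218-48927287, minus strand: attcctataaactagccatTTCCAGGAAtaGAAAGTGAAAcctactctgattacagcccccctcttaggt
Irgm1, chr11:48871411-48871480, minus strand: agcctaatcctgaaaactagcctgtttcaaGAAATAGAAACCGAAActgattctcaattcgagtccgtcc

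In Igtp the GAS letters began at -45 and the ISRE core at -34 from the RefSeq start. In Irgm2 they began at -75 and -64, in Tgtp1 at -88 and -77, in Tgtp2 at -81 and -70, and in Gm12185 at -86 and -75. Irgm1 held 2 overlapping ISRE cores, at -30 and -24, and no GAS letters. Neither motif was in the windows of Ifi47 and 9930111J21Rik2. GAS letters were in 5 of the 8 windows against 8.30% of 32851 promoters, ISRE cores in 6 against 3.44%, and both at most 10 bases apart in 5 against 0.131%. These promoters are related copies of each other, so they are not independent, and a match describes letters only. The stretches of Irgm1, Irgm2, Tgtp1 and Gm12185 lie inside the annotated gene spans given below. Their RefSeq starts thus differ from the outermost annotated starts, and other starts were not searched.

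The genes lie in 3 clusters on the GRCm38 annotation. Irgm1 (chr11:48861968-48871683, minus strand), Gm12185 (chr11:48904656-48992226, minus), Tgtp1 (chr11:48985327-48994172, minus), 9930111J21Rik2 (chr11:49015874-49051242, minus), Tgtp2 (chr11:49057194-49064206, minus) and Ifi47 (chr11:49076587-49096974, plus) form the first. Igtp (chr11:58199556-58207591) and Irgm2 (chr11:58199618-58222782) share the plus strand in the second. Gm4951 (chr18:60212080-60247820) and Iigp1 (chr18:60376027-60392634), both on the plus strand, form the third. All 10 are annotated as protein coding.

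Several of the genes are near-identical, which bears on the values of those copies. The coding sequences of Tgtp1 and Tgtp2 (1245 bases each) were 99.7% identical, and 79.4% of all 50-base stretches in Tgtp1 transcripts also occurred in Tgtp2 transcripts. The coding sequence of 9930111J21Rik2 was 99.6% identical to that of its neighbour 9930111J21Rik1, and 56.1% of its 50-base stretches were shared. Gm12185 and 9930111J21Rik2, with 2505 and 2532 coding bases, were 93.5% identical, and Iigp1 was 88.0% identical to Gm4951. On the same strand, Tgtp1 and Gm12185 share 223 exon bases and Igtp and Irgm2 share 162. How reads matching several places were counted is not given in the sources used here, so the split of reads between these copies is uncertain.

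Values are normalised reads: the authors' group means, divided into the 2 libraries behind each mean and put on 1 scale through T0. The deposited means are sums of whole multiples of 2 steps, from which the reads of both libraries were solved for 99.6% of values. Each library held between 12894823 and 23228004 reads in genes that could be solved. Melanocyte markers were listed for 7 of 7 genes, with summed levels of 368300 to 549400 normalised reads, the highest being Tyrp1. Of the markers of other cells, 2 of 8 myeloid genes were listed (summed 27.5 to 97.1 over the groups), 1 of 7 T cell genes (Lck, 25.5 to 143), 5 of 6 fibroblast genes (282 to 515) and 1 of 4 endothelial genes (Vwf, 166 to 933, highest in IFNγ at 48 h). Ptprc, Cd3e, Cd3d, Pecam1, Cdh5, Adgre1 and Itgam were not listed. Some markers of both kinds moved with IFNγ against mock by the same limma test used below. Of the melanocyte markers, 4 could be tested. At 23.5 h Tyr was higher by 0.28 in log2 (SE 0.05, adjusted p = 0.00156) and Mitf by 0.23 (SE 0.04, adjusted p = 0.00358). At 91 h all 4 were higher, from 0.15 for Mlana (adjusted p = 0.0417) to 0.36 for Tyr (adjusted p = 0.000105), where 8.75% of genes were called higher. Lck was higher at 23.5 h by 0.81 in log2 (SE 0.22, adjusted p = 0.0274), as were Vwf by 0.53 (SE 0.09, adjusted p = 0.00222) and the fibroblast gene Acta2 by 1.66 (SE 0.26, adjusted p = 0.00116), while Pdgfrb was lower (-0.40). Cd68, a myeloid gene, was higher at 91 h by 1.49 (SE 0.26, adjusted p = 0.000991), with means of 97.1 and 35.04, and Col1a1 was lower. The part of these markers in the results was not tested. The IFNγ libraries at 48 h stood apart: among genes of at least 1000 normalised reads, the SD of the log2 ratio between the libraries of a group was 0.429 there and 0.0668 to 0.150 in the other groups. Nothing in the labels ties the libraries to separate cultures. The p-values below therefore cover only the difference between the 2 libraries of a group, possibly a technical one. In these bulk samples, a change in the share of expressing cells and a change in RNA per cell cannot be told apart.

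The regulatory genes were already readable at T0. Irgm1 stood at 950 and 959 normalised reads in the 2 T0 libraries, Irgm2 at 139 and 171, and Igtp at 41.9 and 43.7. Among effectors, Ifi47 stood at 94.7 and 76.4, Iigp1 at 14.6 and 12.01, and Tgtp2 at 10.9 and 8.73. The other 4 genes rested on 4 reads or fewer over both libraries. Tgtp1 had 0 and 2 reads, Gm12185 had 1 and 0, Gm4951 had 3 and 1, and 9930111J21Rik2 had 1 and 3. Per kilobase of exon, Irgm1 was highest at T0 at 164 ± 1.09 normalised reads (SD, n = 2), ahead of Irgm2 at 42.1 ± 6.15 and Ifi47 at 34.6 ± 5.22. The libraries of Irgm2 and Ifi47 overlapped, so their order was not resolved.

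At the labelled 23.5 h all 10 genes of IFNγ-pulsed cells were far above T0, and the libraries lay close together. Irgm1 read 17357 and 17232 normalised reads, Irgm2 7248 and 7093, and Igtp 6352 and 6257. Iigp1 read 6606 and 6560, Tgtp2 5476 and 5340, Ifi47 4126 and 4289, and Tgtp1 2915 and 2867. No library of these groups overlapped one of T0 for any member, and the share of all genes apart from T0 in this way was not counted. The smaller genes read 1032 and 1054 (Gm12185), 543 and 540 (Gm4951), and 178 and 157 (9930111J21Rik2).

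By limma with Benjamini-Hochberg adjustment, 10 of 10 members were higher than T0 at 23.5 h, where 20% of the genes tested were called higher. Tgtp1, Tgtp2, Gm4951, Gm12185 and 9930111J21Rik2 were not listed in mock at 23.5 h, which shares this T0. They may be listed for IFNγ only because they were high there, so their calls add no support to the count. Log2 differences from T0 were 4.18 (SE 0.03) for Irgm1, 5.53 (SE 0.07) for Irgm2, 7.17 (SE 0.07) for Igtp, 5.61 (SE 0.08) for Ifi47, 8.85 (SE 0.10) for Iigp1 and 8.97 (SE 0.11) for Tgtp2. The 4 genes with so few T0 reads are given instead as ratios of normalised read totals with an exact 95% interval that covers counting error only. That ratio was 2911 for Tgtp1 (806 to 24045), 2101 for Gm12185 (377 to 83018), 273 for Gm4951 (106 to 1003) and 84.4 for 9930111J21Rik2 (32.7 to 311). The rise of Irgm1 was 18.1-fold, and those of the 4 genes rest on 1 to 4 T0 reads.

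Per kilobase of exon the order changed. At 23.5 h Igtp led at 3118 ± 33.2 normalised reads (SD, n = 2), followed by Irgm1 at 2977 ± 15.2, Irgm2 at 1943 ± 29.6, Tgtp2 at 1841 ± 32.6, Ifi47 at 1701 ± 46.5 and Iigp1 at 1131 ± 5.6. Tgtp1 stood at 902 ± 10.6, Gm4951 at 205 ± 0.874, Gm12185 at 187 ± 2.69 and 9930111J21Rik2 at 23.9 ± 2.11. Neighbours in this order did not overlap in any of the 9 steps. That covers the spread between libraries, not error in exon length or in the split of reads between near copies. Length counted each annotated exon base of a gene once, 2022 bases for Igtp and 5810 for Irgm1. Without division by length, Irgm1 stood at 17294 normalised reads and Igtp at 6304. At T0, Igtp had stood at 21.2 per kilobase against 164 for Irgm1. In IFNγ at 48 h neighbours overlapped in 8 of 9 steps, so that order was not resolved. At 91 h neighbours were apart in 9 of 9 steps, with the same limits. The regulatory genes led, with Irgm1 at 1517, Irgm2 at 1079 and Igtp at 913. Tgtp2 followed at 556, Ifi47 at 519, Iigp1 at 434, Gm4951 at 169, Tgtp1 at 78.9, 9930111J21Rik2 at 22.4 and Gm12185 at 8.09. In mock at 91 h the first 3 places were held by the same genes, with Irgm1 at 933, Irgm2 at 488 and Igtp at 325, and Ifi47 came next at 186, ahead of Tgtp2 at 128.

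**Figure D1:**
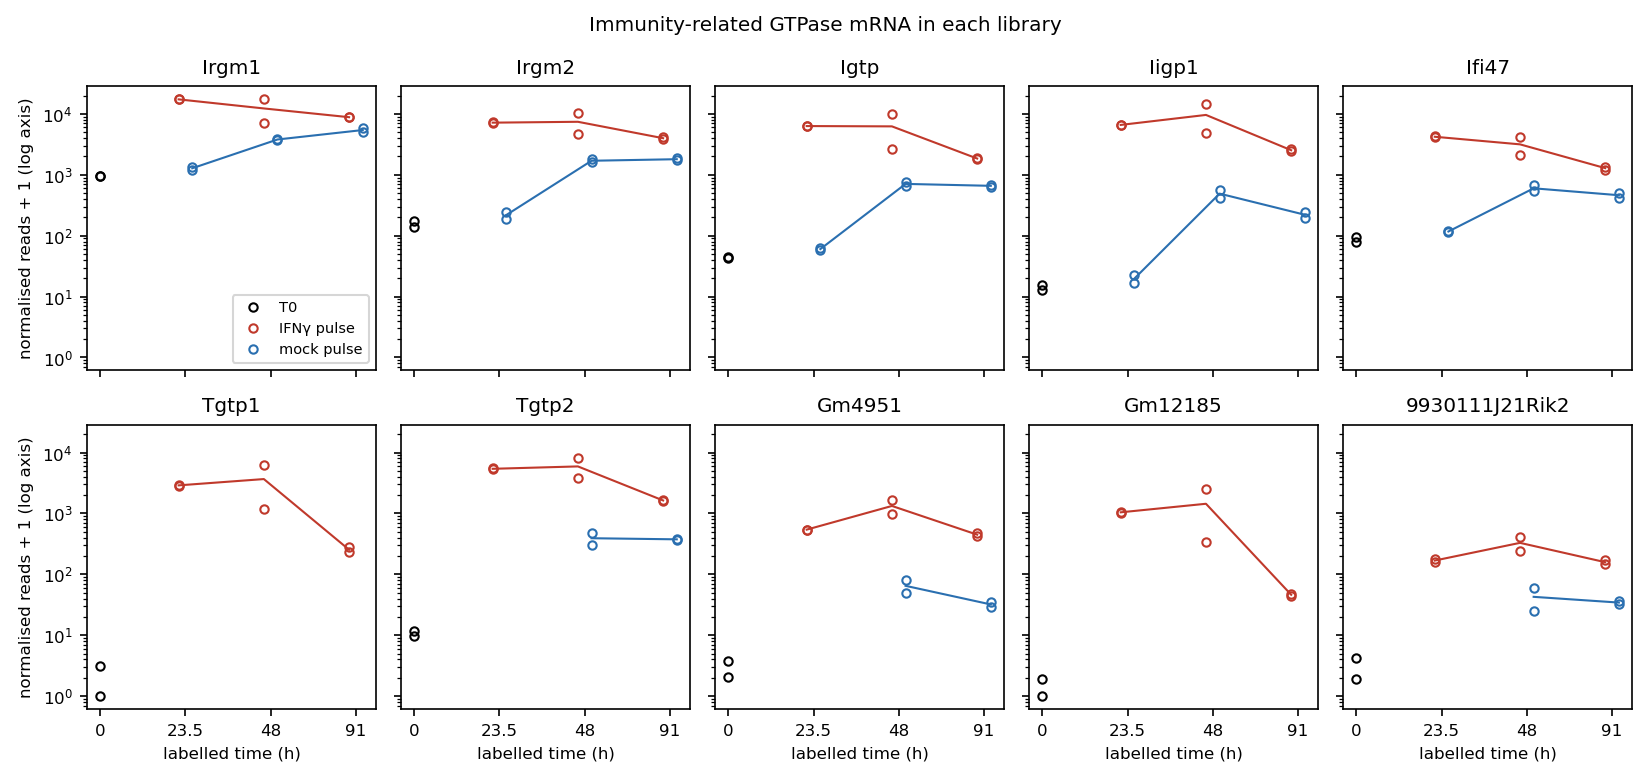
Normalised reads + 1 (log axis) in each of the 2 libraries (circles) of every group, with lines through group means; the labelled times on the horizontal axis are evenly spaced and not to scale. All members of the IFNγ groups lie above T0, and the circles at 48 h are wide apart. A missing mock point means that the gene was not listed in that table.

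Mock-pulsed cells went through the same steps without IFNγ and were compared at the same labelled times. At 23.5 h, 5 members were listed in the mock table. Irgm1 read 1359 and 1198 normalised reads, Irgm2 246 and 188, and Ifi47 118 and 115. Igtp read 61.6 and 56.9, and Iigp1 21.8 and 15.7. In each case the mock libraries were below both IFNγ libraries, whose lowest values were 17232, 7093, 4126, 6257 and 6560. The share of all genes with this separation was not counted.

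Of these 5, 5 were higher in IFNγ than in mock at 23.5 h (limma, adjusted), where 8.55% of genes tested were called higher. The log2 difference was 8.40 for Iigp1 (SE 0.12, adjusted p = 6.3e-13), which ranked first in size among 12452 genes. It was 6.71 for Igtp (SE 0.07, adjusted p = 2.45e-14), 5.17 for Ifi47 (SE 0.06, adjusted p = 8.17e-14) and 5.05 for Irgm2 (SE 0.09, adjusted p = 5.41e-12). Irgm1, with the highest mock level, had the smallest difference of the 5, at 3.76 (SE 0.06, adjusted p = 6.3e-13). The median was 5.17 over the 5 and 0.00 over all genes tested. The other 5 members could not be tested, because the mock table used here does not list them. Irgq, a distant relative in the IRG family, differed by -0.05 (SE 0.07, adjusted p = 0.676).

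At 48 h the libraries of the IFNγ group diverged, and library 2 was higher for 10 of 10 members, where it was higher in 50.2% of 12620 genes compared. Gm12185 read 334 and 2547 normalised reads, Tgtp1 1195 and 6141, and Igtp 2678 and 9781. Iigp1 read 4888 and 14319, Irgm1 6956 and 17586, Irgm2 4648 and 10171, and Tgtp2 3831 and 8005. Library 2 was at least 2-fold higher for these 7 members, against 2.75% of all genes compared. Ifi47 read 2118 and 4197, Gm4951 978 and 1676, and 9930111J21Rik2 243 and 413. The log2 ratio of library 2 to library 1 thus ran from 0.76 to 2.93 with a median of 1.23, where the median over all genes was 0.00.

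**Figure D2:**
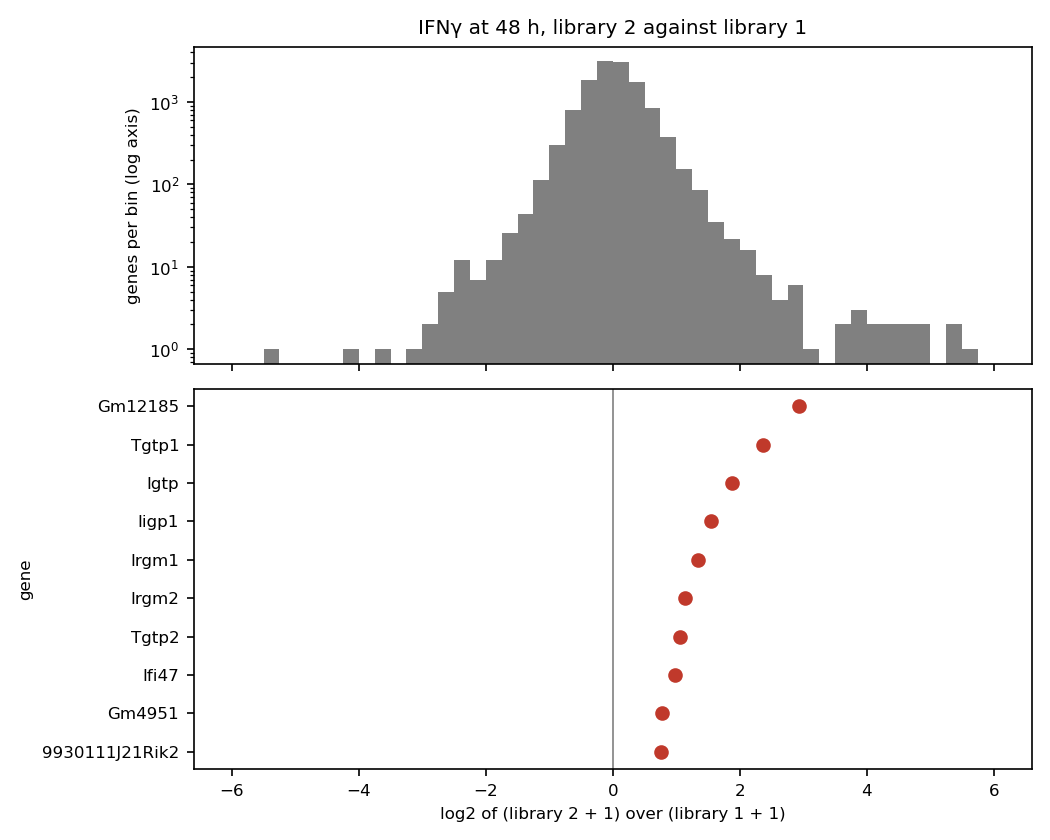
IFNγ at 48 h. Upper panel: number of genes (log axis) by log2 ratio of library 2 over library 1, for 12620 genes of at least 20 normalised reads. Lower panel: the same ratio for each member, all to the right of 0, from 0.76 for 9930111J21Rik2 to 2.93 for Gm12185.

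The comparison with mock at 48 h is therefore weakly determined. The 8 members listed in mock read 3889 and 3698 normalised reads (Irgm1), 1804 and 1591 (Irgm2), 771 and 642 (Igtp), 666 and 531 (Ifi47), 562 and 416 (Iigp1), 475 and 307 (Tgtp2), 78.7 and 49.0 (Gm4951), and 59.0 and 24.5 (9930111J21Rik2). Each IFNγ library was above each mock library for all 8. By limma, 0 of 8 were called, and the background was 0.00% of 12654 genes. All 8 had an unadjusted p under 0.05. The share of all genes with such separation, or with such a p, was not counted. Log2 differences ran from 1.54 (SE 0.43, adjusted p = 0.569) for Irgm1 to 4.34 (SE 0.35, adjusted p = 0.117) for Gm4951. With IFNγ library 1 left out, all 8 log2 differences were larger than as reported, and with IFNγ library 2 left out all 8 were smaller. All 8 stayed above 0, as they did with either mock library left out. In these fits the lone library is assumed to vary like the libraries of the other group, so their calls are not given. In a single fit over all 14 libraries, 8 of 8 were called. That fit also called genes outside the 10, in either direction, a minority of the 12654 tested, where the fit as reported called 0. The calls of members at 48 h thus depend on the choice of fit. Against T0, whose values were far lower, 10 of 10 were higher at 48 h where 13.5% of genes were called higher. Of these, Tgtp1 and Gm12185 were not listed in mock at 48 h, and may be listed here only through their IFNγ level.

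At 91 h the 8 members listed in mock were higher in IFNγ-pulsed cells, by less than at 23.5 h in the 5 that could be compared. Irgm1 read 8912 and 8716 normalised reads against 5807 and 5037 in mock, and Irgm2 4114 and 3851 against 1883 and 1718. Igtp read 1894 and 1799 against 675 and 639, and Ifi47 1351 and 1218 against 508 and 413. Iigp1, an effector, read 2610 and 2443 against 244 and 195. The IFNγ and mock libraries did not overlap for any of these. How many of all genes were apart in this way was not counted. Tgtp2 read 1652 and 1614 against 380 and 370, Gm4951 472 and 423 against 28.4 and 33.7, and 9930111J21Rik2 170 and 145 against 31.7 and 35.1.

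By limma, 8 of 8 listed members were higher in IFNγ than in mock at 91 h, where 8.75% of genes were called higher. Gm4951 had the largest log2 difference of all 12435 genes at 3.81 (SE 0.16, adjusted p = 2.71e-10), and Iigp1 the third largest at 3.53 (SE 0.09, adjusted p = 1.3e-12). Irgm1 had the smallest of the members at 0.70 (SE 0.06, adjusted p = 1e-06). In a single fit over all 14 libraries, 5 of 8 were called, and Igtp (adjusted p = 0.11), Irgm1 (0.282) and Irgm2 (0.0667) were not. That fit called 173 of 12435 genes in either direction. As reported, 1088 were called higher, a count that leaves out the genes called lower. The loss of calls over all genes was therefore larger than these counts show. With no variance trend, 7 of 8 were called, and Irgm1 was not (adjusted p = 0.0614). Of the 12435 genes, fewer than those 173 were called there in either direction. Against T0, 10 of 10 were higher, where 38.1% of genes were called higher. Here too Tgtp1 and Gm12185 were not listed in mock, and may be listed only through their IFNγ level.

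**Figure D3:**
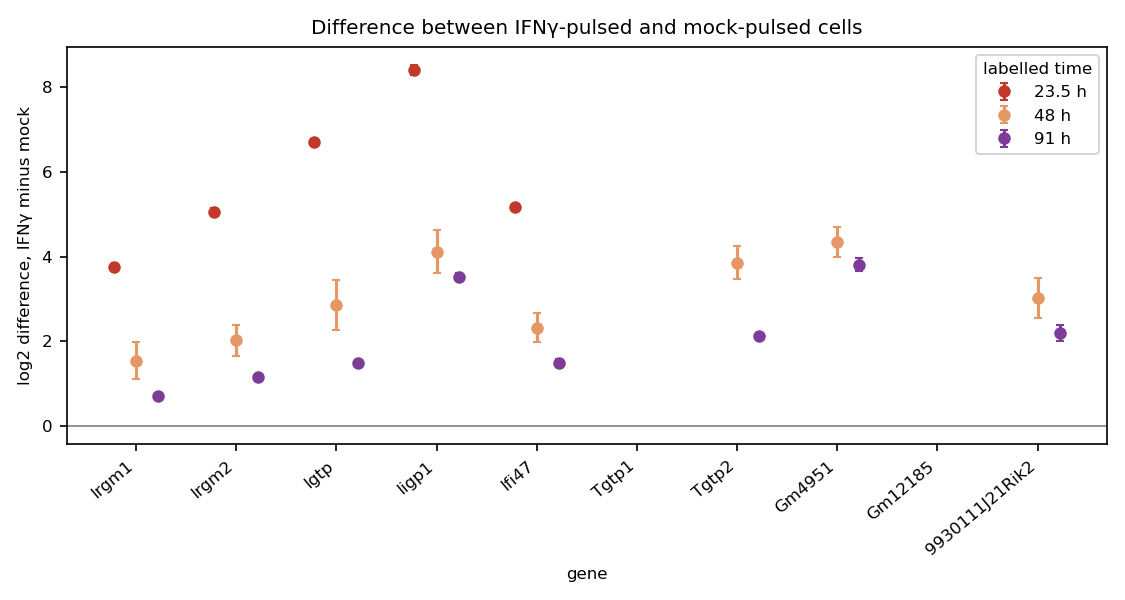
Log2 difference between IFNγ and mock libraries with its standard error from limma, for each member at 3 labelled times. The 23.5 h points run from 3.76 to 8.40 in the 5 members listed in mock, and the 91 h points from 0.70 to 3.81 in 8; Tgtp1 and Gm12185 have no point because mock tables did not list them.

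The size of the IFNγ effect fell between 23.5 and 91 h for all 5 members that could be tested. By the signed change in log2 difference, 5.36% of 12524 genes were called lower. That share can include genes whose difference became more negative. The change in log2 difference was -5.22 for Igtp (SE 0.09, adjusted p = 1.56e-13) and -4.87 for Iigp1 (SE 0.18, adjusted p = 3.19e-10), which ranked first and second in size among all genes. It was -3.91 for Irgm2 (SE 0.13), -3.68 for Ifi47 (SE 0.12) and -3.06 for Irgm1 (SE 0.09). The mean level of Igtp went from 6304 to 1846 normalised reads in IFNγ-pulsed cells and from 59.2 to 657 in mock cells. That of Irgm1 went from 17294 to 8814 and from 1278 to 5422.

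Within IFNγ-pulsed cells, 9 of 10 members were lower at 91 h than at 23.5 h, where 36.8% of genes were called lower; 9930111J21Rik2 was not called. The share of the 23.5 h level that was left ran from 4.34% to 93.9%, and the difference between genes was not tested. Gm12185 changed by -4.50 in log2 (SE 0.11), to 4.34% of its 23.5 h level, and Tgtp1 by -3.52 (SE 0.08), to 8.74%. Igtp, Tgtp2 and Ifi47 kept 29.3%, 30.2% and 30.5%, and Iigp1 kept 38.4%. Irgm1 kept 51.0% and Irgm2 55.5%. Gm4951 kept 82.6% (log2 -0.28, SE 0.08, adjusted p = 0.00605, and 0.482 in a single fit over all 14 libraries), and 9930111J21Rik2 kept 93.9% (log2 -0.09, SE 0.13, adjusted p = 0.547), whose libraries overlapped. Tgtp1 and Tgtp2, whose coding sequences are nearly identical, kept 8.74% and 30.2%.

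**Figure D4:**
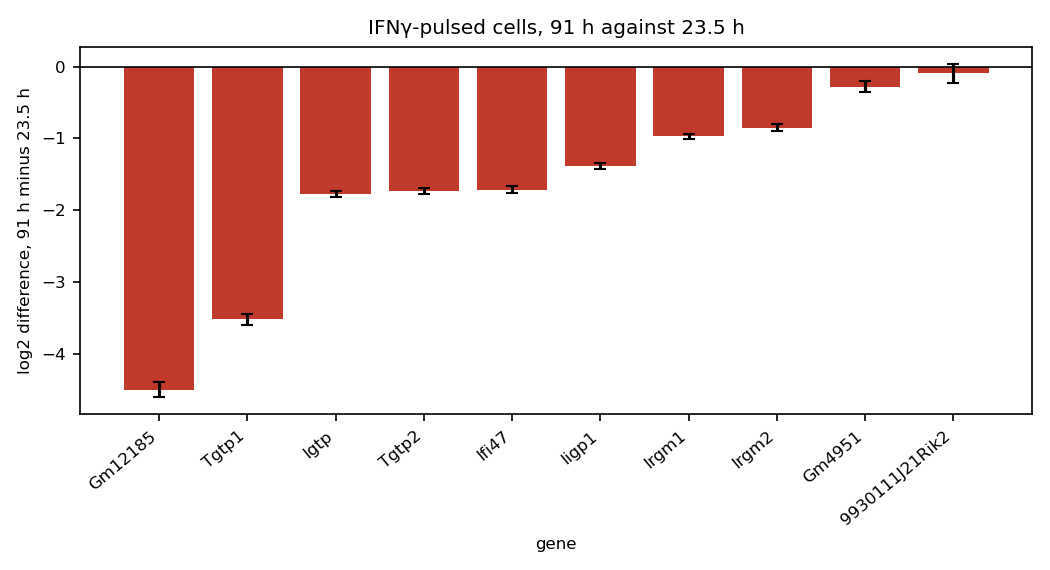
Log2 difference between 91 h and 23.5 h in IFNγ-pulsed cells, with standard errors from limma, ordered by size. Bars run from -4.50 for Gm12185 to -0.09 for 9930111J21Rik2.

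Mock-pulsed cells also changed with time. At 23.5 h the members were little above T0: of 4 tested (the group means of Iigp1 were under 20 normalised reads), 2 were called higher, where 8.08% of genes were. These were Irgm1 (log2 0.42, SE 0.06, adjusted p = 0.000949) and Irgm2 (0.48, SE 0.14, adjusted p = 0.04). Igtp (0.46, SE 0.20, adjusted p = 0.141) and Ifi47 (0.44, SE 0.15, adjusted p = 0.0715) were not called. These calls moved with the setting. Irgm1 was the 1 member still called with equal library totals and in the authors' deposited table (DESeq adjusted p = 0.000917). With no variance trend, or in a single fit over all 14 libraries, 0 were called. For Irgm2 the log2 difference was 0.283 without mock library 1 and 0.329 without T0 library 1.

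From 23.5 to 48 h in mock, 5 of 5 members rose, where 28.0% of genes were called higher. The log2 changes were 4.63 for Iigp1 (SE 0.20), 3.55 for Igtp (SE 0.13), 2.97 for Irgm2 (SE 0.13), 2.35 for Ifi47 (SE 0.13) and 1.57 for Irgm1 (SE 0.08). Against T0, 8 of 8 listed members were higher at 48 h (32.0% of genes) and 8 of 8 at 91 h (37.2%). Of these, Tgtp2, Gm4951 and 9930111J21Rik2 were not listed in mock at 23.5 h, and Tgtp1 and Gm12185 were listed at no mock time. Members may be listed only where their mock level rose, so these counts can leave out members that stayed low. From 48 to 91 h in mock, Irgm1 was higher (0.51, SE 0.08, adjusted p = 0.000249), where 26.6% of genes were called higher. Iigp1 (-1.14, SE 0.16), Ifi47 (-0.38, SE 0.13) and Gm4951 (-0.98, SE 0.28) were lower, where 29.9% were called lower. These shares, 1 of 8 and 3 of 8, are near the background. In a single fit over all 14 libraries, 2 were called (Iigp1 and Gm4951). Ifi47 also lost its call with no variance trend (limma adjusted p = 0.117). Its log2 change was -0.212 without mock 48 h library 1 and -0.226 without mock 91 h library 2. That of Gm4951 was -0.645 without mock 48 h library 1. Mock reached 61.5% of the IFNγ level of Irgm1 by 91 h and 6.94% of that of Gm4951.

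Other IRG-related genes outside the 10 were mostly not listed in mock. F830016B08Rik read 191 and 202 normalised reads at 23.5 h in IFNγ, 137 and 769 at 48 h, and 91.5 and 79.9 at 91 h. Gm12250, annotated as a processed pseudogene, read 389 and 499 at 23.5 h, and 164 and 1002 at 48 h. 9930111J21Rik1, the near copy of 9930111J21Rik2, read 40.5 and 37.9 at 23.5 h, and 43.0 and 47.9 at 91 h.

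Genes of the pathways around IRG proteins were compared between IFNγ and mock at 23.5 h by the same limma test, from lists chosen with results of these data known. The counts below stand beside the 8.55% of all genes tested that were called higher. The guanylate-binding proteins, GTPases that act beside the IRG proteins at vacuoles, were higher in 3 of 3 tested. These were Gbp2 at 4.85, Gbp3 at 4.49 and Gbp7 at 4.17 in log2. Only 3 of the 11 on the list were listed for both IFNγ and mock, so the rest could not be tested. Of 14 IFNγ signalling genes, 5 were higher and 0 lower, among them Irf1 at 2.46 and Irf9 at 1.64. The ATG8 conjugation genes, whose products are needed for IRG loading onto vacuoles, were higher in 2 of 12, by 0.23 for Gabarap and 0.20 for Atg12, a share not far from that of all genes. Ubiquitin and adaptor genes were higher in 4 of 8, with Trim21 at 1.91 and Rnf213 at 1.67. The medians of these lists were 4.49, 0.11, 0.07 and 0.14, beside 0.00 over all genes tested.

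The 5 genes outside the family whose log2 levels over the 7 groups were most like the median profile of the 5 members listed in all tables were Tap1 (Pearson r = 0.994), Nlrc5 (0.993), Gbp7 (0.985), H2-T22 (0.984) and Ube2l6 (0.982), among 857 genes compared. The points are 7 group means that share T0 and the same libraries, so r is a description with no test. Tap1 ran from 131 normalised reads at T0 to 5187 in IFNγ at 48 h.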

How the data were processed

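Poly(A) RNA-seq tables of T0 against each of 6 other groups were used. The submitters' processing notes name STAR 2.5.0a for the authors' alignment, then Picard 1.124, HTSeq 0.5.3 and the authors' DESeq. The deposited mean signal per gene is the authors' mean of normalised reads. The deposited log2 column divides T0 by the other group. Each deposited p-value, raw or adjusted, is the authors' own DESeq output. No source used here gives the annotation, the strand setting or the filter on listed genes.

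Each mean was split into the whole reads of 2 libraries, within 1.2 times the rounding error, and for levels of 10000 or more within a log2 window of 2. That level was raised from 3000 after it left Tgtp1 in the IFNγ 48 h group with no solution; members with deposited means of 3000 or more had 1 solution each with no window at all. Both other windows were added as alternatives after seeing the data. Library numbers only name libraries. The splitting was tested on simulated data made with the size factors of 1 column; a first simulation, with size factors of 3 decimals, left most values without a unique pair. Libraries of different tables were joined through T0. limma 3.58.1 in R 4.3.3 was fitted to log2(normalised reads + 1) for genes of at least 20 normalised reads in either group, with a variance trend, two-sided, Benjamini-Hochberg over all genes tested, and called at adjusted p under 0.05. Fold changes of low genes are understated by the pseudocount of 1. Named genes are all members, related IRG genes and the 5 most alike in profile. Members and lists were chosen with earlier results of these data known, and 1 listed gene is not reported here. Sequences are from RefSeq and GENCODE; no promoter was printed for Iigp1 and Gm4951. Python 3.11.15 was used with numpy 2.4.6 and pandas 2.3.3.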

Additional observations from a re-analysis of the deposited data

Results flagged for a closer look

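In 5 members the IFNγ effect differed between 23.5 and 91 h by a test of the difference itself in limma, as a change in the log2 difference from mock. It was -5.22 for Igtp, -4.87 for Iigp1, -3.91 for Irgm2, -3.68 for Ifi47 and -3.06 for Irgm1. Mean levels of Igtp went from 6304 to 1846 normalised reads in IFNγ-pulsed cells and from 59.2 to 657 in mock-pulsed cells.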

How the results depend on the processing

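No paired analysis was possible because the library numbers only name libraries and pair none across groups. Counts of members called that moved were those for IFNγ against mock at 48 h, with 0 as reported, 8 in 1 fit over 14 libraries, and 1 to 8 when 1 library was left out; at 91 h, with 8 as reported, 5 in that fit and 7 with no variance trend; for mock at 23.5 h against T0, with 2 as reported, 0 with no variance trend, 0 in 1 fit over 14 libraries, 1 with equal totals, 1 by the authors' deposited adjusted p, and 1 without mock library 1; and for mock at 91 h against 48 h, with 4 as reported, 2 in 1 fit over 14 libraries, 3 with no variance trend, and 2 to 5 when 1 library was left out (2 without mock 48 h library 1). IFNγ at 91 h against 23.5 h had 9 as reported and 8 in 1 fit over 14 libraries. With a level minimum of 50, fewer members were tested against T0, and 9 of 9 were called in IFNγ at 91 h, 7 of 7 in mock at 48 h and 6 of 6 in mock at 91 h. Single members changed sign only where 1 library was left out, and none of these was called as reported. Leaving out 1 library gave -0.205 to 0.022 for 9930111J21Rik2 in IFNγ at 91 h against 23.5 h. In mock at 91 h against 48 h it gave -0.231 to 0.032 for Igtp, -0.342 to 0.29 for Tgtp2, -0.804 to 0.431 for 9930111J21Rik2 and -0.004 to 0.177 for Irgm2. The cause was not tested. With a window from 3000, or with none, both chosen after seeing the data, the counts of members called moved by at most 1, and Tgtp1 could not be tested in IFNγ at 48 h with the former. Over all settings, 170 of 192 counts equalled the count as reported. Of the single values, 1397 kept their direction and their side of the threshold, 29 became past it and 19 fell short of it. Each group has 2 libraries, and the split of reads between near-identical copies such as Tgtp1 and Tgtp2 is uncertain.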
